A study of Mus musculus with 2 samples.

Results

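Cells rich in natural killer (NK) receptor transcripts were compared with CD8 T cells of the same sort, as 2 populations of killer lymphocytes from the same tumours. The authors numbered 16 subclusters at resolution 0.8 of their clustering. The cells compared were the 632 of subcluster 3 and the 785 of subcluster 1, 1417 of the 5976 cells in all. The cells were CD45-positive and JAML-positive cells sorted from mouse tumours and sequenced as 1 droplet library with 5′ chemistry. JAML is an adhesion and costimulatory receptor, so every cell described here was chosen for carrying it. The hashtags named B16F10, a mouse melanoma cell line, and an isotype control with a number from 1 to 3, and each number was taken as 1 mouse. All 3 mice belonged to that 1 group, so no treatment was compared. Strain, age and sex of the mice were not given in the sources used here. The labels called the cells T cells and the extraction text also used the word TREG, while the authors' annotation lists the species as human for cells whose genes are mouse genes.

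NK cells and CD8 T cells kill by the same route, releasing perforin and granzymes from granules onto the target cell. They find the target differently. A CD8 T cell uses a rearranged T cell receptor that signals through the CD3 chains, with CD8 as coreceptor. An NK cell reads a set of germline-encoded receptors, among them NKp46 (Ncr1), NK1.1 (Klrb1c), the NKG2 receptors and the Ly49 receptors for MHC class I, and its activating receptors signal through small adaptor proteins such as those encoded by Tyrobp, Fcer1g and Hcst. Gamma-delta T cells and other unconventional T cells can carry both kinds of receptor.

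Subcluster 3 held 291, 122 and 219 cells in mice 1, 2 and 3, with 3381752, 1252679 and 1909150 unique molecular identifiers (UMIs) in sum. Subcluster 1 held 64, 124 and 597 cells, with 593323, 1122410 and 5286142 UMIs. Mouse 3 therefore gave most of the CD8 cells and mouse 1 few of them. The subcluster 1 cells of mouse 1 also stood apart in content, since 67.2% had a UMI of Cd8a or Cd8b1 against 89.5% in mouse 2 and 95.6% in mouse 3. Median depth was 8908 UMIs per cell in subcluster 3 and 8550 in subcluster 1. Levels below are CPM, a gene's summed UMIs in a class and mouse scaled to the same fixed total of UMIs in each. No doublet caller was run here.

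Because the authors built the subclusters from the RNA of these same cells, differences between subclusters 3 and 1 are given as a description. They are log2 fold changes from edgeR with the mouse as a block, each ± an SE. The quasi-likelihood test gives no SE, so it was derived as the absolute log2 fold change over the square root of F. The same holds for the gates. Of 8380 genes, 1224 (14.6%) passed an adjusted p of 0.05 between the subclusters, 646 higher in subcluster 3 (7.71%) and 578 higher in subcluster 1 (6.9%), and the 3 mice of each class did not overlap in 28%; nothing is read from these counts. The test was made on a second pair of classes, chosen by 4 transcripts within a cluster of the authors that was itself built from the RNA. Within the authors' cluster named for Cd3g, the NK gate took the 347 cells with a UMI of Ncr1 or Klrb1c and none of Cd8a or Cd8b1. The CD8 gate took the 1265 cells with a UMI of Cd8a or Cd8b1 and none of Ncr1 or Klrb1c. Subcluster 3 held 338 of the NK-gate cells. The CD8 gate drew 717 cells from subcluster 1, 324 from subcluster 7 and 114 from subcluster 10. It also took 76 cells of subcluster 3 itself and 34 of subcluster 15. Those 76 were 11.7, 11.5 and 12.8% of the subcluster 3 cells of mice 1, 2 and 3. They weighed most in mouse 1, where subcluster 3 held 291 cells and the whole CD8 gate 146. In mice 1, 2 and 3 the CD8 gate held 146, 208 and 911 cells, of which 41, 109 and 567 were of subcluster 1. Its make-up thus differed between mice, and a gate difference is not one between subclusters 3 and 1 alone. The gate genes were left out of the calls. Each adjusted p is edgeR's, by the quasi-likelihood test with Benjamini-Hochberg adjustment, for the gates.

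The label was checked first, and it held only in part. Ncr1 stood at 256, 151 and 159.8 CPM in subcluster 3 of the 3 mice and at 0, 0.891 and 0.946 CPM in subcluster 1. Klrb1c stood at 198, 167 and 172 CPM against 8.43, 3.56 and 1.14 CPM. Cd8a gave the opposite picture, 48.5, 44.7 and 37.2 CPM against 607, 788 and 615 CPM. So the marker genes separated the classes in every mouse. Yet 577 of the 632 cells of subcluster 3 (91.3%) had a UMI of Cd3d, Cd3e or Cd3g, and 44 (6.96%) had none of these and no Cd8 UMI. At 6084 UMIs per cell, Cd3d was found in 86.0% (95% interval 82.9 to 88.8%) of 573 subcluster 3 cells and in 99.9% of 702 subcluster 1 cells. The part of free RNA in such shares was not tested. CD3 chains are a defining part of T cells and NK cells lack them at the surface, so the population is called by its rule, NK receptor-rich subcluster 3, and not NK cells.

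NK receptor and T cell receptor transcripts were both found in subcluster 3, and whether they sat in the same cells was not examined for Trdc and Trac. A UMI of Ncr1 or Klrb1c was seen in 433 of 632 cells (68.5%) of subcluster 3 and in 10 of 785 (1.27%) of subcluster 1. Both genes together were seen in 189 cells (29.9%) of subcluster 3. Trdc, the constant gene of the delta chain, had a UMI in 177 cells (28%) of subcluster 3, against 9 (1.15%) of subcluster 1. Trac, the alpha chain constant gene, had a UMI in 62.0% of the thinned cells of subcluster 3 and 98.7% of those of subcluster 1. The plot of shares at equal depth shows the NK receptors and the CD3 and receptor chain genes side by side.

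**Figure D1:**
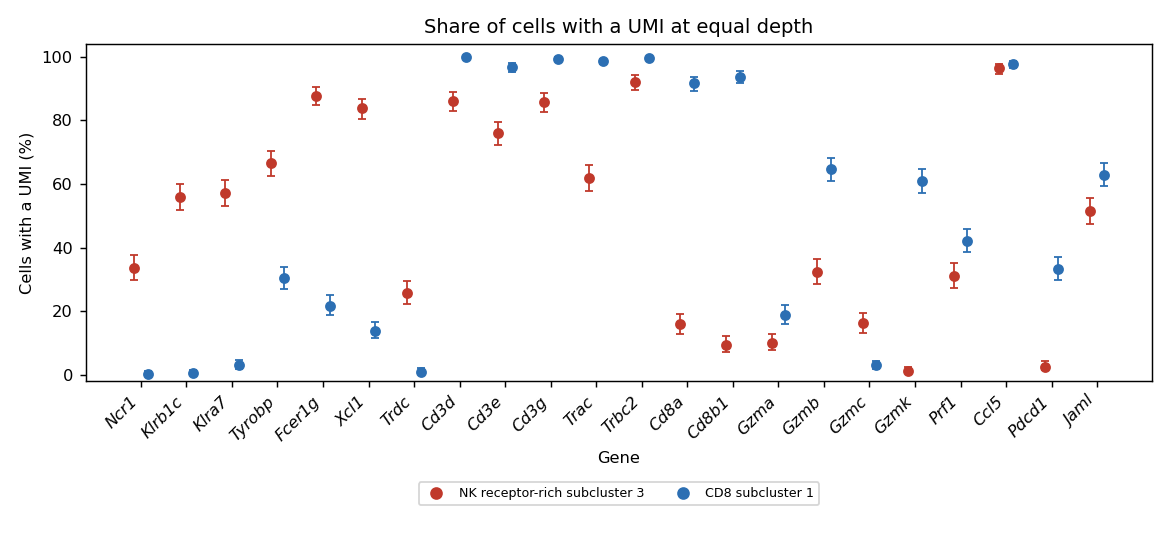
Share of cells with at least 1 UMI of each gene after thinning every cell to 6084 UMIs (573 cells of subcluster 3 in red, 702 of subcluster 1 in blue), with exact 95% binomial intervals that cover counting error only. NK receptor genes were seen almost only in subcluster 3, Cd3d in 86.0% and 99.9% of the cells, and Ccl5 in nearly all cells of both.

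The classes were sequenced to similar depth. Median UMIs per cell were 9900, 8662 and 7926 in subcluster 3 and 8116, 8509 and 8592 in subcluster 1, so the order differed between mice (two-sided exact permutation test on the paired mice, p = 0.75). The median share of mitochondrial UMIs was 2.58, 2.73 and 2.61% against 2.02, 2.07 and 1.91%, a difference of 0.642 ± 0.0729 percentage points (SD, n = 3; exact p = 0.25). The share from ribosomal protein genes was 30.5, 30.3 and 30.8% against 28.3, 27.6 and 26.5% (exact p = 0.25). Both shares were higher in subcluster 3 in 3 of 3 mice, and 0.25 is the smallest p that 3 pairs allow. Their part in the results below was not tested.

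Activating receptors and NK lectins were mostly higher in the NK gate. Between the gates, which did not overlap over the 3 mice in 24.5% of genes, 746 of 8634 genes tested (8.64%) passed an adjusted p of 0.05, 411 higher in the NK gate (4.76%) and 335 higher in the CD8 gate (3.88%). Each count of list members, here and below, is to be read beside 4.76% and 3.88%. Of the 14 activating receptors listed, 11 were tested, and 6 were higher in the NK gate, 1 lower and 4 not past the threshold. The median log2 difference of the 11 was 1.32, against 0.0055 over all genes tested. Klrk1, which encodes the activating receptor NKG2D, was at 679.5, 556 and 625 CPM in subcluster 3 and 401, 213 and 153 CPM in subcluster 1. Its groups did not overlap, and the gates differed by 1.89 ± 0.16 log2 units (edgeR adjusted p = 6.3e-06). Klrb1a, a relative of Klrb1c, had 63.9, 49.5 and 26.2 CPM in subcluster 3 and no UMI in subcluster 1, at least 109-fold higher against a floor of 3 UMIs over the group. Fcgr3, the Fc receptor CD16, was 2.52 ± 0.33 log2 units higher in the NK gate (edgeR adjusted p = 2.6e-04), and Crtam, an adhesion receptor of activated killer cells, 1.32 ± 0.26 units (edgeR adjusted p = 0.006). Slamf6 was the member lower in the NK gate, at -1.28 ± 0.20 (edgeR adjusted p = 0.0011). Cd226 and Cd2, which T cells share with NK cells, did not pass, at -0.22 ± 0.12 and 0.13 ± 0.13 (edgeR adjusted p = 0.35 and 0.66).

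The Ly49 genes set the 2 populations apart, and several were seen in single cells of subcluster 3. They encode receptors that in mice read MHC class I, most of them inhibitory, and they are near-identical copies, so reads may be split between members and single values are uncertain. In subcluster 3, 519 of 632 cells (82.1%) had a UMI of at least 1 of the 10 Ly49 genes in the matrix, 408 (64.6%) of at least 2 and 237 (37.5%) of at least 3. In subcluster 1 those shares were 9.30%, 1.02% and 0.127%. Klra7 stood at 478, 462 and 477 CPM in subcluster 3 and 20.2, 23.2 and 12.3 CPM in subcluster 1. The 3 mice of subcluster 3 differed little, and all lay far above subcluster 1. The gates differed by 3.1 ± 0.35 (edgeR adjusted p = 7.8e-05). Klra1 stood at 298, 209 and 272 CPM against 0, 14.3 and 1.51 CPM, and the gates differed by 3.71 ± 0.36 (edgeR adjusted p = 2.2e-05). Klra8, which encodes the activating member Ly49H, had 47.6, 27.9 and 39.8 CPM in subcluster 3 and no UMI in subcluster 1, at least 89.7-fold higher. All 8 Ly49 genes tested, of 13 listed, were higher in the NK gate, with a median of 3.71. The filter on low counts kept genes that were high enough in 1 gate alone. Besides, 338 of the 347 NK-gate cells were of subcluster 3, which was built from the RNA. Counts of NK receptor lists therefore describe the gates and are no test of the lists. Of the 9 listed genes of the NKG2 and CD94 family, 7 were tested and 6 were higher, with a median of 2.05. In that family Klre1, a partner of inhibitory and activating lectins, was at 358, 279 and 349 CPM against 25.3, 21.4 and 19.9 CPM, and Klrd1, which encodes CD94, was at 893, 893 and 856 CPM against 447, 518 and 385 CPM. The Klrd1 difference between the gates was small, 0.79 ± 0.13 (edgeR adjusted p = 0.0015), and that of Klre1 was 3.67 ± 0.19 (edgeR adjusted p = 1.1e-07).

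**Figure D2:**
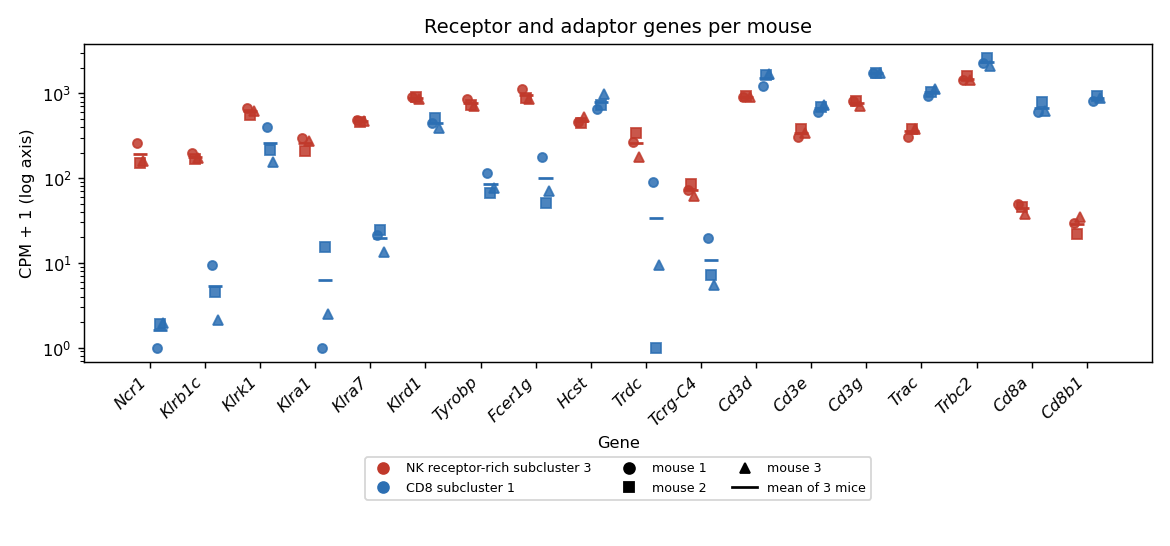
Receptor, adaptor and T cell receptor genes in the 3 mice, as CPM plus 1 on a log axis, for subcluster 3 (red) and subcluster 1 (blue), with the mouse as the symbol and the mean of 3 mice as a line. Klra7 lies between 462 and 478 CPM in subcluster 3 and at or below 23.2 CPM in subcluster 1, while Cd3d differs by less than the lectins do.

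Most of these genes sit together on chromosome 6, in the NK gene complex. The stretch from the start of Klrb1a at 128609227 to the end of Klra2 at 131247362 (GRCm38, GENCODE M21) holds 121 annotated genes. Of these, 24 were tested between the gates, and 19 were higher in the NK gate and 1 in the CD8 gate. Among all genes tested, 4.76% were higher in the NK gate and 3.88% in the CD8 gate. The gate gene Klrb1c lies in the stretch and was left out, and genes high enough in 1 gate alone were kept. The median over the 24 was 2.63. The gene that went the other way was the unnamed gene model 2310001H17Rik. Not every gene of the stretch differed. Clec2d, which encodes a lectin ligand of the Klrb1 receptors, was at -0.31 ± 0.12 (edgeR adjusted p = 0.14), and Cd69, an early activation marker in the middle of the stretch, at -0.08 ± 0.11 (edgeR adjusted p = 0.77).

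Adaptors of these receptors were mostly higher in the NK gate as well. Fcer1g, which encodes the signalling gamma chain of Fc receptors and NKp46, stood at 1120.1, 885 and 861 CPM in subcluster 3 and 179, 49.9 and 69.4 CPM in subcluster 1. Tyrobp, the adaptor of activating Ly49 and NKG2 receptors, stood at 855, 737 and 714 CPM against 113, 65.0 and 74.9 CPM. Both were higher in subcluster 3 in every mouse with no overlap. Between the gates Fcer1g differed by 3.45 ± 0.28 (edgeR adjusted p = 5.5e-06) and Tyrobp by 3.56 ± 0.20 (edgeR adjusted p = 2.0e-07). The kinase Syk, which binds these adaptors, was higher by 2.61 ± 0.46 and Sh2d1b1, an adaptor of SLAM receptors, by 3.65 ± 0.41 (edgeR adjusted p = 0.003 and 7.7e-05). Hcst, the adaptor that pairs with NKG2D, ran the other way at 464, 441 and 527 CPM against 657, 723 and 982 CPM, with a gate difference of -0.59 ± 0.13 (edgeR adjusted p = 0.013). That call was lost without mouse 2 or mouse 3 (edgeR adjusted p = 0.16 and 0.075). Of 9 adaptor genes tested, of 10 listed, 7 were higher in the NK gate and 2 in the CD8 gate. Both of the latter, Hcst and Sh2d2a, were lost without mouse 2 and without mouse 3. Calls on the NK side were lost as well. The counts were 7 and 1 without mouse 1, 6 and 0 without mouse 2, and 5 and 0 without mouse 3. At equal depth, with 8 genes tested, they were 5 and 2.

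The T cell receptor was present in subcluster 3 at a lower level. Cd3e stood at 303, 381 and 344 CPM in subcluster 3 and 602, 688 and 726 CPM in subcluster 1. Trac stood at 306, 376 and 384 CPM against 939, 1024 and 1130.1 CPM. In both genes the mice of the 2 classes did not overlap, and subcluster 3 kept a clear level of each. All 7 chain genes tested were higher in the CD8 gate, with a median of -0.95, and Trac differed by -1.88 ± 0.12 (edgeR adjusted p = 5.4e-07). The 2 beta constant genes are near copies of each other. For Trbc1 the call was lost without mouse 1 or mouse 2 (edgeR adjusted p = 0.091 and 0.43), and for Trbc2 without mouse 2 (edgeR adjusted p = 0.083).

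Below the receptor the split was uneven. Themis, a signalling protein of thymocytes and T cells, was at 7.69, 12.8 and 14.7 CPM in subcluster 3 and 97.8, 130.1 and 123 CPM in subcluster 1, and the gates differed by -4.29 ± 0.21 (edgeR adjusted p = 5.0e-08). Lat, the adaptor that assembles the T cell receptor signal, was at 99.4, 127 and 128 CPM against 357, 481 and 481 CPM, with a gate difference of -1.92 ± 0.15 (edgeR adjusted p = 2.7e-06). Cd5 and Cd6, surface proteins that tune that signal, differed by -2.95 ± 0.22 and -3.25 ± 0.19 (edgeR adjusted p = 2.0e-06 and 2.9e-07). The kinases nearest the receptor differed little. Zap70 was at -0.36 ± 0.12 and did not pass (edgeR adjusted p = 0.093), and Lck was at -0.57 ± 0.11 (edgeR adjusted p = 0.0042), a call lost without mouse 2 (edgeR adjusted p = 0.055). Txk, a kinase of the Tec family, was the gene of this list that was higher in the NK gate, at 345, 386 and 306 CPM against 109.5, 116 and 101 CPM in the subclusters and 1.01 ± 0.13 between the gates (edgeR adjusted p = 3.3e-04). Of 16 signalling genes, all tested, 8 were higher in the CD8 gate, 1 in the NK gate and 7 did not pass.

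Gamma-delta genes were among those higher with the NK receptors. Trdc stood at 269, 335 and 177 CPM in subcluster 3 and 89.3, 0 and 8.32 CPM in subcluster 1, the highest CD8 value being that of the 64 cells of mouse 1. Between the gates Trdc differed by 2.77 ± 0.29 (edgeR adjusted p = 4.7e-05). Restricted to gated cells of subclusters 3 and 1 the difference was 7.08 (edgeR adjusted p = 3.2e-10), an alternative chosen after seeing the data. Tcrg-C4 and Tcrg-C2, gamma chain constant genes with near copies, differed by 3.05 ± 0.28 and 1.22 ± 0.18 (edgeR adjusted p = 1.2e-05 and 7.1e-04). Of 9 genes listed 4 were tested, 3 were higher in the NK gate and Tcrg-C1 did not pass (1.54 ± 0.48, edgeR adjusted p = 0.069).

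The killing genes did not divide by class as the receptors did. Gzmk, a granzyme of CD8 T cells, was found mostly in subcluster 1, Gzmc and Gzma were higher in subcluster 3, and Gzmb did not separate the classes. Gzmk stood at 1.77, 4.79 and 4.71 CPM in subcluster 3 and 91.0, 127 and 245 CPM in subcluster 1, and the gates differed by -5.61 ± 0.23 (edgeR adjusted p = 1.2e-08). It had a UMI in 13 of 632 cells (2.06%) of subcluster 3 and 525 of 785 (66.9%) of subcluster 1. In mice 1, 2 and 3 these shares were 1.37, 2.46 and 2.74% against 31.3, 46.0 and 75.0%. Gzmc stood at 1728, 774 and 177 CPM against 77.5, 3.56 and 5.11 CPM. It was higher in subcluster 3 in each mouse, and its level there differed more between mice than that of Gzma, Gzmb or Gzmk. The gates differed by 6.19 ± 0.35 (edgeR adjusted p = 2.0e-07). Gzma stood at 438, 304 and 267 CPM against 11.8, 84.6 and 150.01 CPM, with no overlap, and the gates differed by 2.85 ± 0.50 (edgeR adjusted p = 0.0028). Without mouse 3 the Gzma difference was 4.0 and without mouse 1 it was 1.96.

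Gzmb, the main granzyme of killer cells, stood at 762, 319 and 291 CPM in subcluster 3 and 725, 241 and 887 CPM in subcluster 1. Its ranges overlapped, and the gate difference of 0.65 ± 0.36 did not pass (edgeR adjusted p = 0.35). Without mouse 3, which gave most CD8 cells, it was 1.44 (edgeR adjusted p = 2.8e-06), and without mouse 1 or 2 it was 0.11 and 0.29 (edgeR adjusted p = 0.92 and 0.84). Prf1, which encodes the pore protein perforin, stood at 268, 125 and 113 CPM against 104, 65.9 and 102 CPM and was 1.58 ± 0.22 higher in the NK gate (edgeR adjusted p = 4.8e-04). Nkg7, a granule membrane protein that both cell types make, was at 1325, 1182 and 1068 CPM against 2183, 2520.5 and 2956 CPM. Its gate difference of -0.67 ± 0.16 passed (edgeR adjusted p = 0.022) but not without mouse 2 or mouse 3 (edgeR adjusted p = 0.14 and 0.15). Serpinb9 and Serpinb6b, serpin protease inhibitors, were higher in the NK gate by 2.0 ± 0.16 and 1.76 ± 0.15 (edgeR adjusted p = 5.0e-06 and 6.5e-06). Serpinb9 shields killer cells from their own granzyme B. Of 19 granule genes tested, of 23 listed, 6 were higher in the NK gate, 2 in the CD8 gate and 11 did not pass, with a median of 0.31. Without mouse 3 the counts were 8 and 1, and among gated cells of subclusters 3 and 1 alone they were 5 and 5. In the main fit 4.76% of all genes were higher in the NK gate and 3.88% in the CD8 gate.

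**Figure D3:**
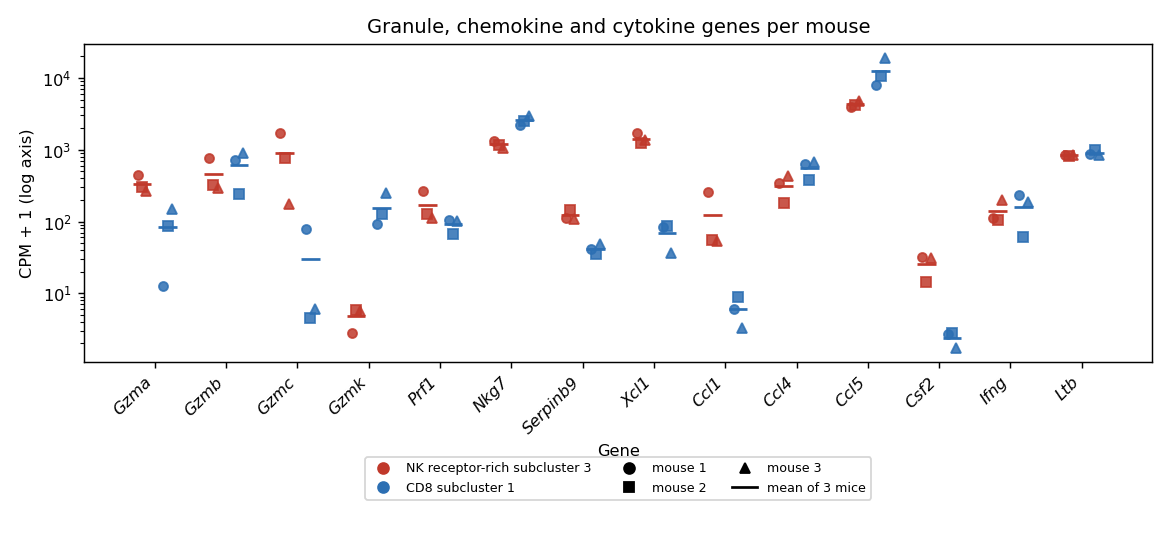
Granule, chemokine and cytokine genes in the 3 mice, as CPM plus 1 on a log axis, for subcluster 3 (red) and subcluster 1 (blue), with the mouse as the symbol and the mean of 3 mice as a line. Xcl1 and Gzmk separate the classes in opposite directions, and the points of Gzmb overlap.

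Behind these averages most Gzma, Gzmc, Gzmb and Prf1 UMIs of subcluster 3 came from few cells. Nkg7 was spread more evenly, with a UMI in 610 of 632 cells and 29.7% of its UMIs in the top 64. Gzma gave 2371 UMIs in 74 of the 632 cells, and 7 cells held 50% of them. Gzmc gave 7151 UMIs in 114 cells, and 5 cells held 50%. The 64 cells with the most UMIs of each gene, the top 10% of the class, held 99.6% of the Gzma, 99.2% of the Gzmc, 85.9% of the Gzmb and 80.2% of the Prf1 UMIs. Subcluster 1 spread Gzmb and Prf1 more widely. Its top 79 cells held 51.1% of the Gzmb UMIs and 42.0% of the Prf1 UMIs, and 517 of its 785 cells had a Gzmb UMI against 242 of 632. Gzma and Gzmc were concentrated in subcluster 1 too, with 88.8% of the Gzma UMIs and 100% of the 77 Gzmc UMIs in the top 79 cells. Per mouse the top 10% of subcluster 3 cells held between 82.8 and 84.2% of the Gzmb UMIs, and those of subcluster 1 held 76.3, 66.7 and 46.3%. The class averages of Gzma, Gzmc, Gzmb and Prf1 in subcluster 3 therefore describe mostly a few cells each. The share of cells, pooled over the mice, can order the classes the other way. At equal depth Gzma was seen in 10.1% of subcluster 3 cells and 18.8% of subcluster 1 cells, while its CPM was higher in subcluster 3. Prf1 was seen in 31.1% and 42.2%. These shares pool the mice, and mouse 3 gave 597 of the 785 subcluster 1 cells. Without thinning, UMIs of both Gzma and Gzmb were in 9.28, 9.84 and 7.76% of subcluster 3 cells in mice 1, 2 and 3. In subcluster 1 they were in 4.69, 8.87 and 21.1%, so only mouse 3 had the higher share in subcluster 1. The curves of cumulative UMIs over cells show the same for 7 genes.

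**Figure D4:**
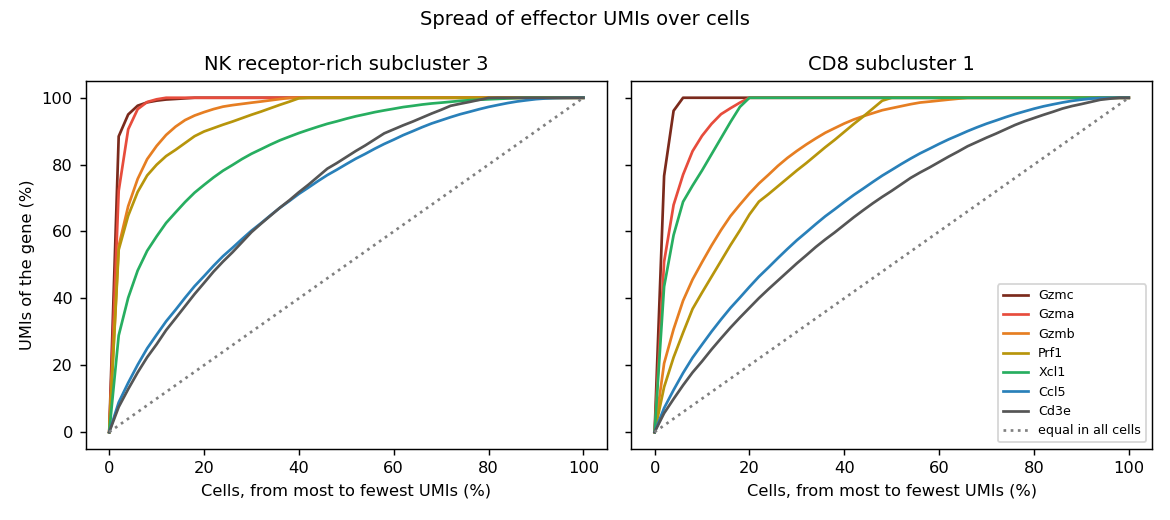
Cumulative share of a gene's UMIs against the share of cells, ordered from the cell with the most UMIs to the cell with the fewest, in subcluster 3 (left, 632 cells) and subcluster 1 (right, 785 cells); the dotted line is an equal level in all cells. Gzma and Gzmc rise to nearly 100% within the first 10% of subcluster 3 cells, whereas Ccl5 and Cd3e run close together in both panels.

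The 44 cells of subcluster 3 with no Cd3 and no Cd8 UMI carried more granule transcripts than the rest. They came from all 3 mice (18, 9 and 17 cells) and had a median of 9409 UMIs, against 8890 in the other 588 cells. As means over mice with the SD (n = 3), Gzmb was at 2046 ± 1094 CPM in them and 316 ± 206 CPM in the rest, and Prf1 at 672 ± 342 against 123 ± 70.1 CPM. Gzma was at 2027 ± 873 CPM against 180.1 ± 125 CPM. Ncr1 followed, at 583 ± 229.8 CPM against 153 ± 51.6 CPM, as did Tyrobp, at 1975 ± 305 CPM against 656 ± 105 CPM. Not every NK receptor did: Klra1 was at 53.7 ± 56.7 CPM against 278 ± 53.1 CPM. Ikzf2, at 94.9 ± 35.3 CPM against 517 ± 25.7 CPM, and Tcf7, at 75.7 ± 41.4 CPM against 244 ± 39.5 CPM, were lower in the CD3-free cells. A low Trac level of 11.8 ± 11.6 CPM, against 387 ± 49.7 CPM, went with the absence of Cd3 UMIs that chose the cells. Other chain genes were lower but still present. Trbc2 was at 365 ± 80.7 CPM against 1591 ± 129 CPM, with a UMI in 61.4% of the 44 cells. Cd247, a chain gene not used to choose them, was at 56.9 ± 12.8 CPM against 105 ± 13.9 CPM. These are values of cells picked by transcripts within 1 cluster and were not tested.

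Secreted signals separated the populations by gene. Xcl1, a chemokine for type 1 dendritic cells, stood at 1695, 1240.5 and 1347 CPM in subcluster 3 and 82.6, 84.6 and 35.4 CPM in subcluster 1. Ccl5, the chemokine that effector CD8 cells make in bulk, stood at 3878, 4197 and 4831 CPM against 7928, 10515 and 18691 CPM. Neither gene overlapped between the classes. Xcl1 had a UMI in 83.8% (95% interval 80.5 to 86.7%) of subcluster 3 cells and 14% of subcluster 1 cells at equal depth. Between the gates Xcl1 differed by 3.91 ± 0.28 and Ccl5 by -1.13 ± 0.20 (edgeR adjusted p = 1.9e-06 and 0.0029), and the Ccl5 call was lost with DESeq2 (adjusted p = 0.09). Without mouse 3 the Ccl5 difference was -0.75 (edgeR adjusted p = 0.011).

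Csf2, which encodes the myeloid growth factor GM-CSF, stood at 30.8, 13.6 and 29.9 CPM in subcluster 3 and 1.69, 1.78 and 0.757 CPM in subcluster 1, and the gates differed by 4.28 ± 0.35 (edgeR adjusted p = 4.8e-06). Ccl1, a chemokine for CCR8-bearing cells, differed by 5.78 ± 0.26 (edgeR adjusted p = 2.7e-08), but 738 of its 1034 UMIs in subcluster 3 came from 1 cell. Without that cell its pooled level was 45.5 CPM in place of 158, against 3.43 CPM in subcluster 1. Ifng, the interferon that both cell types release, overlapped at 111, 103 and 199 CPM against 233, 60.6 and 187 CPM. Its gate difference of 0.60 ± 0.15 (edgeR adjusted p = 0.024) was lost without mouse 2 (edgeR adjusted p = 0.25) and without the mouse as a block (edgeR adjusted p = 0.42). Ccl4 was at 339, 180.4 and 430.03 CPM against 622, 374 and 683 CPM in the subclusters and at 0.05 ± 0.13 between the gates (edgeR adjusted p = 0.9). Of 14 cytokine genes tested, of 18 listed, 4 were higher in the NK gate, 1 in the CD8 gate and 9 did not pass. Among all genes tested, 4.76% were higher in the NK gate and 3.88% in the CD8 gate.

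The 250 bases before the RefSeq start (GRCm38.p6) are shown for Ncr1 and Xcl1, higher in every mouse of subcluster 3, and for Cd8a, lower in every mouse, since Tbx21 and Eomes, measured below, encode T-box factors that act in both cell types beside RUNX factors. Capitals mark the RUNX core TGTGGT and the T-box core TCACAC, each searched on both strands (reverse complements ACCACA and GTGTGA). Ncr1 lies at chr7:4337474-4337723, plus strand, Xcl1 at chr1:164935523-164935772, minus strand, and Cd8a at chr6:71373177-71373426, plus strand.
Ncr1: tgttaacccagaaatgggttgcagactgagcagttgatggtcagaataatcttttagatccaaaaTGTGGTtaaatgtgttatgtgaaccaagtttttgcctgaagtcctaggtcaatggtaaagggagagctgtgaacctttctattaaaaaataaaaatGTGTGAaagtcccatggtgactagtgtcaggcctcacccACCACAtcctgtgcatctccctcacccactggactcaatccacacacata
Xcl1: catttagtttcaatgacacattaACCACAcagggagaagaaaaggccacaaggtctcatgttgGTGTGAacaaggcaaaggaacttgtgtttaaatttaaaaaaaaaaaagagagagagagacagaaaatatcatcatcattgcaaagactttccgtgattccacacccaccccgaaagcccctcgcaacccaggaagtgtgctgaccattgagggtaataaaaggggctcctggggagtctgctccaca
Cd8a: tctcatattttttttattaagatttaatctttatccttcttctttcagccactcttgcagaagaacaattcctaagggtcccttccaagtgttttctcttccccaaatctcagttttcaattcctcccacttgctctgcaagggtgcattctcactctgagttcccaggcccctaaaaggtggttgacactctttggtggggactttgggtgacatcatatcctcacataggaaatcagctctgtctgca
The Ncr1 stretch held 3 matches, that of Xcl1 held 2 and that of Cd8a held 0. Over 27025 promoters of the same length, 12.2% held the T-box letters and 14.2% the RUNX letters, and the matches are a description of the letters only.

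Of the T-box factors shared by killer cells, Tbx21 differed little and Eomes was higher in subcluster 3, while the T cell factor Bcl11b was lower there. Tbx21, which encodes T-bet, stood at 49.7, 45.5 and 62.3 CPM in subcluster 3 and 43.8, 43.7 and 56.2 CPM in subcluster 1, with overlapping mice. Eomes, its relative, stood at 67.7, 51.1 and 62.9 CPM against 20.2, 13.4 and 26.7 CPM, without overlap. Between the gates Tbx21 differed by 0.57 ± 0.14 (edgeR adjusted p = 0.023), a call lost without mouse 1 or 2 (edgeR adjusted p = 0.099 and 0.087). Eomes differed by 0.78 ± 0.15 (edgeR adjusted p = 0.0048), a call lost at equal numbers of cells (edgeR adjusted p = 0.26) and with DESeq2 (DESeq2 adjusted p = 0.11). Irf8, a factor of NK cells and dendritic cells, stood at 195, 155 and 101 CPM against 70.8, 54.3 and 35 CPM and differed by 1.67 ± 0.12 (edgeR adjusted p = 1.9e-06). Nfil3, needed for NK cell development, differed by 1.71 ± 0.19 (edgeR adjusted p = 6.9e-05). On the other side stood Bcl11b, the T cell identity factor, at 51.2, 78.2 and 60.2 CPM against 239, 242 and 255 CPM, with a gate difference of -2.16 ± 0.15 (edgeR adjusted p = 1.6e-06), and Tox, linked to exhaustion, at -1.60 ± 0.13 (edgeR adjusted p = 4.4e-06). Of 26 factors tested, of 30 listed, 8 were higher in the NK gate, 5 in the CD8 gate and 13 did not pass, and with DESeq2 the counts were 4 and 3. By edgeR 4.76% of all genes were higher in the NK gate and 3.88% in the CD8 gate.

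Ikzf2, which encodes Helios, a factor of regulatory and innate-like T cells, differed by an amount that varied with the CD8 cells compared. It stood at 459.8, 505 and 481 CPM in subcluster 3 and 57.3, 25.8 and 13.4 CPM in subcluster 1, a log2 difference of 4.35 ± 0.27. The CD8 gate, which beside subcluster 1 held 76 cells of subcluster 3 and cells of subclusters 7, 10 and 15, had 214, 122 and 38.9 CPM. The part of each subcluster in that level was not tested. The gates differed by 1.67 ± 0.32 (edgeR adjusted p = 0.0049). That call was lost without the mouse as a block (edgeR adjusted p = 0.066) and with DESeq2 (DESeq2 adjusted p = 0.19), and the difference without mouse 3 was 0.96. Mean Ikzf2 levels were 58.5 CPM in subcluster 7 and 175 CPM in subcluster 10. Tcf7, a factor of memory and naive T cells, was 1.45 ± 0.25 in the subclusters and -0.10 ± 0.27 between the gates (edgeR adjusted p = 0.9), with 229.99, 95.9, 175 and 350.04 CPM in subclusters 3, 1, 7 and 10. Without mouse 3 the Tcf7 gate difference was -0.73 (edgeR adjusted p = 0.003).

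Receptors for growth and homing signals divided in both directions. Il2rb, the shared receptor chain for IL-2 and IL-15, stood at 569, 505 and 537 CPM in subcluster 3 and 366, 142 and 175 CPM in subcluster 1, with a gate difference of 1.36 ± 0.16 (edgeR adjusted p = 1.2e-04). Kit, the receptor for stem cell factor, was low but at 26.9, 32.7 and 24.1 CPM against 5.06, 0 and 0.568 CPM, with a gate difference of 4.56 ± 0.44 (edgeR adjusted p = 2.1e-05). Both were higher in 3 of 3 mice. Il12rb2 and Il18rap, chains of the receptors for IL-12 and IL-18, differed by 1.76 ± 0.21 and 1.36 ± 0.18 (edgeR adjusted p = 1.1e-04 and 3.0e-04). Of 20 cytokine receptor genes, all tested, 6 were higher in the NK gate and 1 in the CD8 gate, or 2 in the CD8 gate without mouse 1 or mouse 3. Cxcr6, a receptor that holds T cells in tissue, stood at 109, 127 and 83.8 CPM in subcluster 3 and 600.01, 462 and 590.03 CPM in subcluster 1 and differed by -1.83 ± 0.16 between the gates (edgeR adjusted p = 9.0e-06). Itga2, the integrin chain CD49b used to mark NK cells, differed by 2.34 ± 0.26 (edgeR adjusted p = 6.9e-05). Of 22 homing and adhesion genes tested, of 25 listed, 5 were higher in the NK gate, 4 in the CD8 gate and 13 did not pass. Those counts were 3 and 3 without mouse 2, 3 and 4 without mouse 3, and 2 and 3 with DESeq2. Of 10 genes tested for type 1 innate lymphoid cells, 2 were higher in each gate, but 4 in the NK gate and 2 in the CD8 gate without mouse 1, and 3 and 1 without mouse 3 or at equal depth. Of the genes listed for circulating NK cells 6 of 10 tested were higher in the NK gate and 0 in the CD8 gate. For each list of this paragraph the share over all genes was 4.76% for the NK gate and 3.88% for the CD8 gate.

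Checkpoint and costimulatory receptors differed in both directions. Pdcd1, which encodes PD-1, stood at 8.58, 4.79 and 17.3 CPM in subcluster 3 and 129.8, 92.7 and 85.7 CPM in subcluster 1 and differed by -3.87 ± 0.30 between the gates (edgeR adjusted p = 3.1e-06). Lag3 and Ctla4, inhibitory receptors as well, differed by -1.84 ± 0.15 and -1.86 ± 0.18 (edgeR adjusted p = 4.4e-06 and 2.0e-05). Tnfrsf9, the costimulatory receptor 4-1BB, was higher in the NK gate by 2.57 ± 0.19 (edgeR adjusted p = 2.3e-06), and stood at 189, 126 and 96.9 CPM against 59.0, 36.5 and 9.65 CPM in the subclusters. Of 14 tested, of 17 listed, 3 were higher in the NK gate, 5 in the CD8 gate and 6 did not pass, and with DESeq2 the counts were 3 and 3. By edgeR the shares over all genes were 4.76% and 3.88%.

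Interferon-response genes were lower with the NK receptors. Ifi27l2a stood at 339, 227 and 258 CPM in subcluster 3 and 2093, 2051 and 1312 CPM in subcluster 1 and differed by -2.63 ± 0.19 between the gates (edgeR adjusted p = 2.1e-06). Ifit3 and Isg15, also induced by type I interferon, differed by -1.81 ± 0.20 and -1.28 ± 0.19 (edgeR adjusted p = 5.5e-05 and 8.0e-04). Of the 14 genes, all tested, 10 were higher in the CD8 gate, 0 in the NK gate and 4 did not pass, with a median of -0.89. With each mouse left out in turn between 8 and 10 were higher in the CD8 gate. In the plot of all lists the called members of this list, of the Ly49 list and of the T cell receptor chains each lie on 1 side.

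**Figure D5:**
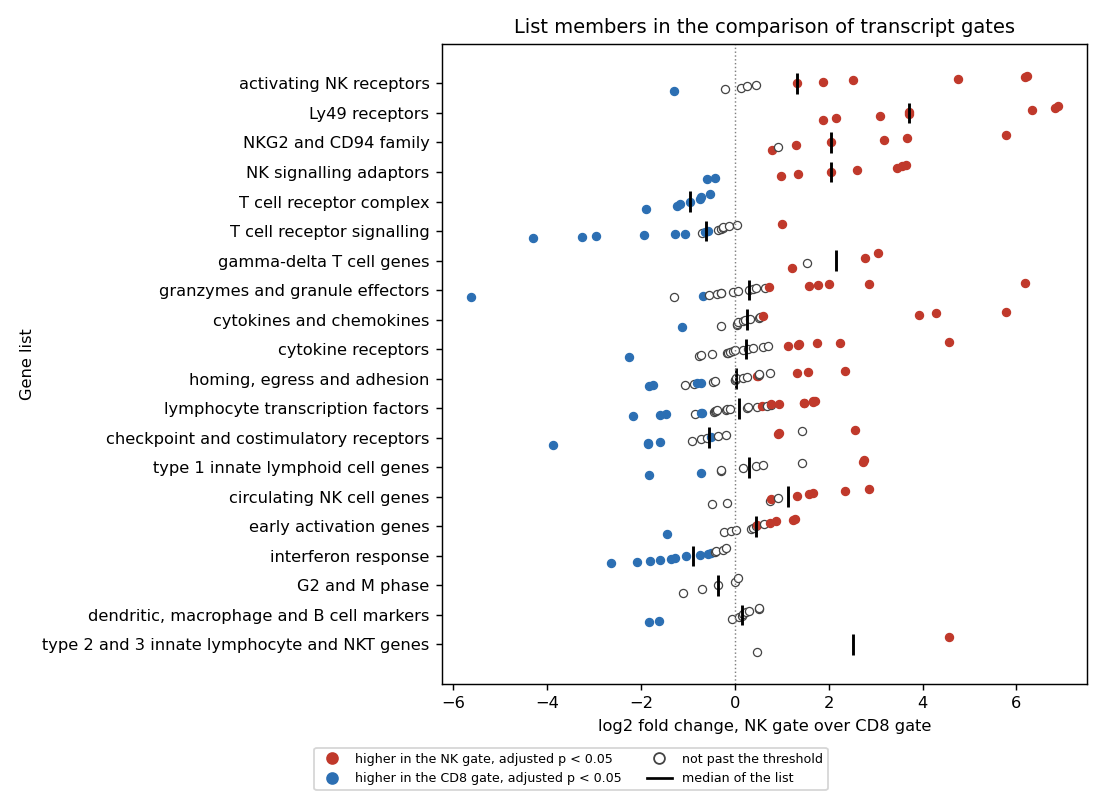
Log2 fold change between the NK gate and the CD8 gate for every tested member of the gene lists, one list per row, filled where edgeR's adjusted p was under 0.05 (red, higher in the NK gate; blue, higher in the CD8 gate) and open where it was not; black bars are list medians. All 8 Ly49 genes lie to the right, all 7 T cell receptor chain genes to the left, and the granule list on both sides.

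Jaml, whose protein the cells were sorted on, was measured in both classes. It stood at 190.4, 140.5 and 116 CPM in subcluster 3 and 182, 224 and 222 CPM in subcluster 1, so the mice of the 2 classes overlapped. At equal depth 51.5% (95% interval 47.3 to 55.6%) of subcluster 3 cells and 63.0% (95% interval 59.3 to 66.5%) of subcluster 1 cells had a UMI. The gate difference of -0.61 ± 0.16 passed (edgeR adjusted p = 0.031), but not without mouse 2 or mouse 3 (edgeR adjusted p = 0.11 and 0.17), at equal depth (edgeR adjusted p = 0.093) or at equal numbers of cells (edgeR adjusted p = 0.086).

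Transcripts of other cell types were found in both classes. At equal depth Lyz2, a macrophage and neutrophil gene, had a UMI in 38.7% of subcluster 3 cells and 40.0% of subcluster 1 cells, and Cst3, a gene of dendritic cells and macrophages, in 81.7% and 80.6%. The summed level of the 18 dendritic cell, macrophage and B cell markers was 1280 to 2985 CPM in subcluster 3 and 1647 to 4214 CPM in subcluster 1, highest in mouse 1 in both. Between the gates 10 of the 18 were tested, 0 were higher in the NK gate and 2 in the CD8 gate, C1qb and Cd209a, both of which changed sign with gates at 2 UMIs; DESeq2 called 0 in either direction. Only 3.64% and 5.10% of the cells had no UMI of Lyz2, C1qa, Cst3, Siglech and Cd79a, so the comparison could not be repeated without such cells. The part of these transcripts in the results was not tested.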

How the data were processed

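One gene expression library of CD45-positive, JAML-positive tumour cells was analysed; the antibody-tag library was not analysed here. Cell Ranger 3.1.0, Seurat 3.1.5 and the mm10 build are named in the submitters' processing notes. The deposited matrix holds UMI counts as the authors made them, with no normalization, for 15416 genes, and the deposited annotation gives each cell's hashtag, cluster numbers and percent of mitochondrial and ribosomal UMIs, as the authors computed them. The cells deposited have 1499 to 5999 genes and at most 5% mitochondrial UMIs. No hashtag was given for 8 cells, 0 of them in subclusters 3 or 1.

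UMI counts were summed per class and mouse (at least 10 cells each) and fitted in R 4.3.3 with edgeR 4.0.16 (quasi-likelihood test, TMM, filterByExpr, Benjamini-Hochberg adjustment over all genes tested). The mouse was a block, since both classes came from the same 3 mice. Shares of cells were compared after thinning to 6084 UMIs, the 10th percentile, with exact 95% intervals. Shares in a cell type that should lack these genes are not reported here. Intervals and floors cover counting error only. Measures per cell were compared with an exact paired permutation test. The scripts were tested on simulated counts.

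Named genes were the 10 with the largest fold change per direction between the subclusters (at least 30 CPM in the higher class, the same direction in every mouse), members of 21 gene lists by level or by fold change (at least 10 CPM), and a fixed set of markers. The first of these passed over V, D and J segments, genes with Gm or Rik names, and those of mitochondria and ribosomes. Further list members that differed, or did not, between the gates were named after their values were seen. The cells, gates and lists were chosen with earlier results of these data known.

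Alternatives were RLE size factors, DESeq2 1.42.0, no filter on low counts, no mouse block, an adjusted p of 0.01, each mouse left out, thinned cells, equal numbers of cells, gates at 2 UMIs and NK-like cells without Cd3 and Cd8 UMIs. Subcluster 1 cells with a Cd8 UMI and no Cd4 UMI, and gated cells of subclusters 3 and 1, were added after seeing the data.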

Additional observations from a re-analysis of the deposited data

How the results depend on the processing

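The counts of genes past the threshold moved with the tool, the filter, the threshold and the cells used. Between subclusters 3 and 1 the count of 1224 became 665 at an adjusted p of 0.01, 450 with DESeq2 and 172 with subcluster 3 cells that had no Cd3 and no Cd8 UMI, where fewer genes could be tested and only mice 1 and 3 had 10 cells. Leaving out 1 mouse gave 840 to 1389. Between the gates the count of 746 became 384 at an adjusted p of 0.01, 1183 with no filter on low counts, 335 with DESeq2 and 394 at equal numbers of cells, and 497 to 736 with 1 mouse left out, lowest without mouse 2. Without the mouse as a block, a pairing given by the shared mice, the counts were 1097 and 635. The difference in mitochondrial UMIs, 0.642 percentage points from each mouse's median cell, was 0.773 from the mean. Of the 746 genes called between the gates, all kept their sign with RLE size factors, no filter, no block, DESeq2 or equal depth, where 660 to 746 of them could be tested. These refits reused counts of the same cells, so their signs had little room to change and are no support. In that order 735, 740, 612, 334 and 473 of the calls were kept. With gates at 2 UMIs 739 of the 746 genes could be tested, and 736 kept their sign.

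Sign changes were listed for the 130 named genes only, where at least 1 of the 2 fits compared called the gene. Between the gates the sign differed from that between the subclusters for Ccl4 (0.0496), Il6st (-0.76), Itgb1 (0.48), Id2 (0.28), Cst3 (0.17), H2-Eb1 (0.0881), Ifng (0.60) and Tcf7 (-0.10). With CD3-free subcluster 3 cells it differed for Ccl4 (1.43), Itgb1 (1.11), Id2 (0.069) and Inpp4b (0.11). Of all 1224 genes called between the subclusters, 917 could be tested with CD3-free cells, and 850 of these kept their sign. The cause was not tested. The comparison of cells without myeloid and B cell UMIs was not run, since only mouse 3 had 10 such cells in each class. With 3 mice, 1 library and 64 subcluster 1 cells in mouse 1, small differences and low genes were not detectable at this depth.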

Other observations

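Early-response genes are switched on in lymphocytes within minutes of a signal or of handling. Of 14 listed, 13 were tested between the gates by edgeR: 5 were higher in the NK gate, 1 was higher in the CD8 gate and 7 did not pass, with a median log2 difference of 0.45. Without mouse 1 the counts were 8 and 1, without mouse 2 they were 3 and 1, without mouse 3 they were 2 and 1, with DESeq2 they were 3 and 1, and among gated cells of subclusters 3 and 1 they were 9 and 2. In the main fit 4.76% of all genes were higher in the NK gate and 3.88% in the CD8 gate. Dusp1, a phosphatase that damps kinase signalling, stood at 369.5, 391 and 587 CPM in the NK gate of the 3 mice against 166, 149 and 211 CPM in the CD8 gate, a log2 difference of 1.28 ± 0.12 (edgeR adjusted p = 1.1e-05). Egr1, a factor induced by T cell receptor signals, was the gene higher in the CD8 gate, at 25.4, 18 and 39.8 CPM in the NK gate of the 3 mice against 70.2, 57.2 and 89.4 CPM in the CD8 gate, a log2 difference of -1.45 ± 0.16 (edgeR adjusted p = 6.2e-05).

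Of 12 listed genes of the G2 and M phases of the cell cycle, 5 were tested between the gates. By edgeR 0 passed in either direction and 1, Ube2c, had an unadjusted p under 0.05 and was lower in the NK gate; DESeq2 also called 0, and with no filter on low counts 1 of 12 was called. Mki67, a marker of dividing cells, had a log2 difference of 0.01 ± 0.32 (edgeR adjusted p = 0.998). Of 13 genes listed for type 2 and type 3 innate lymphocytes and NKT cells, 2 were high enough to test. Kit, a growth factor receptor, was higher in the NK gate, at 31.1, 40.4 and 35.7 CPM in the 3 mice against 4.10, 0.962 and 0.719 CPM in the CD8 gate, a log2 difference of 4.56 ± 0.44 (edgeR adjusted p = 2.1e-05). Gata3, a factor of helper T cells and innate lymphocytes, did not pass, with a log2 difference of 0.48 ± 0.14 (edgeR adjusted p = 0.059).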
